A study of Mus musculus with 9 samples.

Results

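The nuclear genes that encode subunits of respiratory complexes II to V and the electron carrier cytochrome c were followed in 9 hippocampal libraries. They were taken by symbol: Sdha, Sdhb, Sdhc, Sdhd, Cyc1, Cycs, every symbol that starts with Uqcr or Atp5, and every symbol that starts with Cox followed directly by a digit of 4 to 8. This rule found 49 of the 24394 genes of the table, namely 4 of complex II, 9 of complex III, 18 of complex IV, 17 of complex V and Cycs itself. The 9 libraries came from postmortem hippocampus of C57BL6/J mice, an inbred strain, in 3 groups of 3. One group received doxorubicin together with MitoQ, one received doxorubicin alone, and the sham group received saline. Doxorubicin is an anthracycline used in chemotherapy that binds DNA and poisons topoisomerase II, and MitoQ is a ubiquinone derivative that accumulates in mitochondria. It was given as a supplement and doxorubicin by injection, while dose, timing, sex and exact age are not stated in the labels. No group received MitoQ without doxorubicin. The doxorubicin plus MitoQ libraries are also called MitoQ libraries, and a library is named by its group and replicate number (doxorubicin 2). The labels do not say that each library came from its own mouse, so a p-value here reflects how much these samples varied, which may be technical variation only.

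Complex II (succinate dehydrogenase) feeds electrons from the citric acid cycle into ubiquinone. Complex III passes them on to cytochrome c, complex IV (cytochrome c oxidase) hands them to oxygen, and complex V (ATP synthase) makes ATP from the proton gradient that results. Neurons draw most of their ATP from this chain. Complex II is encoded by nuclear genes alone, whereas the other complexes also hold subunits made from mitochondrial DNA, which were not analysed here. Several subunits of complex IV exist as tissue isoforms, with one gene used broadly and another in muscle, testis, lung or particular brain cells. The genes are known targets of the transcription factors NRF1, GABP (an ETS factor), ERR alpha and YY1.

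The promoters of 4 members are shown because they belong to the genes on which the account below turns. Cox8a has the highest level of complex IV per kb of transcript, and Cox8b is its rarely used isoform. Uqcrh has the smallest p-value of the members, and Atp5g3 is the main gene for the c subunit of ATP synthase. Each stretch runs from 250 bases before to 50 bases after the annotated start, in the direction of transcription, and was taken from RefSeq on GRCm38.p6. Capitals mark matches to a motif on either strand.

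Cox8a, chr19:7217567-7217866, minus strand: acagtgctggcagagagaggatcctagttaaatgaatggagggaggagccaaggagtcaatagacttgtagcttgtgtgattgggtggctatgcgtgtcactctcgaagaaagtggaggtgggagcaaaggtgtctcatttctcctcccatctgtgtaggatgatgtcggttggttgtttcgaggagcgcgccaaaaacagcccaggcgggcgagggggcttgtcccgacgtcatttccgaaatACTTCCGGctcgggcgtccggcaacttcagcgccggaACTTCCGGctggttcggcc

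Cox8b, chr7:140900397-140900696, minus strand: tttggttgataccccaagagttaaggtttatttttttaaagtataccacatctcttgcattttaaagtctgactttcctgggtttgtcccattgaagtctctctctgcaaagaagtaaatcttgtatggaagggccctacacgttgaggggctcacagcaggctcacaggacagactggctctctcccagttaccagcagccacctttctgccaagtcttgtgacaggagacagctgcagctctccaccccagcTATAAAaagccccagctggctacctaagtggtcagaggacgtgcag

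Uqcrh, chr4:116075021-116075320, minus strand: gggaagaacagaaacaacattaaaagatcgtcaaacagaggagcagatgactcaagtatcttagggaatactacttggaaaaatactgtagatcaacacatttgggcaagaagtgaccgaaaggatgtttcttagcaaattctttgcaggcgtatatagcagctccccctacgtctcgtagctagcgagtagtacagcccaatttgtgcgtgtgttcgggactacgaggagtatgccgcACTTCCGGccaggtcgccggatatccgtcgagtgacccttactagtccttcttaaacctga

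Atp5g3, chr2:73911277-73911576, minus strand: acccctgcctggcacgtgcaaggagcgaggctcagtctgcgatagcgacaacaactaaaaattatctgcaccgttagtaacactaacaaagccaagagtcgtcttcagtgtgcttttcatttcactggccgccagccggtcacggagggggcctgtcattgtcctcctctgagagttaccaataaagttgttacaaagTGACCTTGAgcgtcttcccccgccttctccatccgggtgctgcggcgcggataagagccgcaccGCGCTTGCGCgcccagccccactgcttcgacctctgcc

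In the Cox8a promoter the capitals are 2 ETS matches, in Uqcrh they are 1 ETS match, in Cox8b they are a TATA match, and in Atp5g3 they are an ERR match followed by an NRF1 match. A promoter was found for 38 of the 49 members. The letters searched, on both strands, were GCGCA, any base and GCGC in a row for NRF1, CCGGAAGT for ETS, AAGATGGCG for YY1, TCAAGGTCA for ERR, TGACGTCA for CRE, GGGCGG for SP1 and TATAAA for TATA. The NRF1 letters stood in 10 of the 38 member promoters (26.3%), in 10.3% of the 11546 promoters of tested genes and in 5.19% of all 27025 promoters. Those 10 genes spanned the complexes, with Sdha and Sdhd of complex II, Uqcrc1 of complex III, Cox6a1 of complex IV, and Atp5c1, Atp5g2, Atp5g3, Atp5h, Atp5k and Atp5o of complex V. For ETS the shares were 10.5% of member promoters, 7.88% of those of tested genes and 4.31% of all, and for YY1 they were 7.89%, 3.1% and 1.64%. The ERR letters stood in Sdhd and Atp5g3 (5.26% of member promoters), against 0.32% of tested genes and 0.466% of all. The CRE letters stood in Cycs and Uqcrfs1, also 5.26%, against 3.44% of tested genes and 2.03% of all. SP1 letters were found in 39.5% of member promoters, against 66.8% of tested genes and 38.2% of all, and TATA letters in 7.89%, against 8.96% and 15.7%. A match is a string of letters in this window and no measurement of binding.

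Library totals ran between 24.7 and 41.2 M (mega) counts, so that 3 counts, taken as the floor for counting error alone, correspond to 0.072 to 0.12 CPM, which scales counts to a library size adjusted by TMM and so removes depth. All 8 hippocampal neuron markers looked for were present, with group means between 76.9 CPM (Prox1, a dentate granule cell factor, in sham) and 2566 CPM (Snap25, a synaptic vesicle fusion protein, in doxorubicin libraries). RNA of the choroid plexus, the tissue that secretes cerebrospinal fluid and adjoins the hippocampus, varied between libraries. The summed level of 12 choroid plexus markers was 3586, 1387 and 5386 CPM in doxorubicin plus MitoQ libraries 1 to 3, 4218, 77.7 and 2198 CPM in doxorubicin libraries, and 89.8, 5148 and 99.8 CPM in sham libraries. Thus 3 of the 9 libraries, doxorubicin 2, sham 1 and sham 3, were poor in this RNA, and the MitoQ group held none of these. All 12 markers had a log2 fold change above 0 for MitoQ against doxorubicin and for MitoQ against sham, beside 49.9% and 52.2% of all tested genes. The medians were 0.62 and 0.81, each smaller than the median SE of 1.11. In both comparisons edgeR called 0 of the markers and 0% of all tested genes.

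The 49 members took between 0.633% and 0.694% of the counts of a library. Of these, 48 passed the filter on low counts that left 15296 genes for testing. The exception was Cox8c, a testis isoform of the complex IV subunit 8, which had 0 counts in every library, and in the least deep library 3 counts correspond to 0.12 CPM. The summed level of the members was 6637, 6627 and 6677 CPM in doxorubicin plus MitoQ libraries, 6590, 6383 and 7029 CPM in doxorubicin libraries, and 6670, 6756 and 6731 CPM in sham libraries. The doxorubicin group held both the lowest and the highest of the 9 sums and spread around all others, so the groups overlapped. The means were 6647 ± 26.3 CPM with doxorubicin plus MitoQ, 6667 ± 330 CPM with doxorubicin alone and 6719 ± 44.3 CPM in sham libraries (SD, n = 3 each).

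Complex V made up 48.9% of the members' summed level (mean over 9 libraries 3268 CPM), complex IV 26.1% (1745 CPM), complex III 15.1% (1007 CPM), complex II 9.72% (649 CPM) and Cycs 0.122% (8.16 CPM). Per kilobase of transcript, which allows genes to be compared, the catalytic beta subunit of ATP synthase, Atp5b, stood highest at 553 CPM per kb over the 9 libraries. It was followed by 3 subunits of complex IV, Cox8a at 492, Cox6a1 at 461 and Cox4i1 at 456 CPM per kb, and by the alpha subunit of ATP synthase, Atp5a1, at 349.5 CPM per kb. The highest of complex III was Uqcrh, the hinge protein at cytochrome c1, at 225 CPM per kb. In complex II the flavoprotein subunit Sdha led at 142 CPM per kb, ahead of the iron-sulfur subunit Sdhb at 89.8, and of the membrane anchors Sdhd at 50.3 and Sdhc at 22.9 CPM per kb. Cycs, encoding cytochrome c, stood at 2.61 CPM per kb.

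Some of these levels are uncertain because the transcript has near-identical copies elsewhere among annotated transcripts. Copies of at least 95% identity over at least 100 bases were found for 21 members, and in 10 they covered more than 50% of the transcript used for length. Those 10 are Atp5o (92% of the transcript), Atp5g2 (88.2%), Atp5l (86.8%, in 11 other genes), Atp5h (77.8%), Atp5g1 (69%), Atp5f1 (64.6%), Uqcrb (62.8%), Cox7c (58.3%), Atp5k (56.6%) and Atp5c1 (55.8%). Cycs has copies in 51 other genes that cover 35% of its transcript. Reads that fit several places may have been dropped or shared out for them, as the counting procedure is unknown here.

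**Figure D1:**
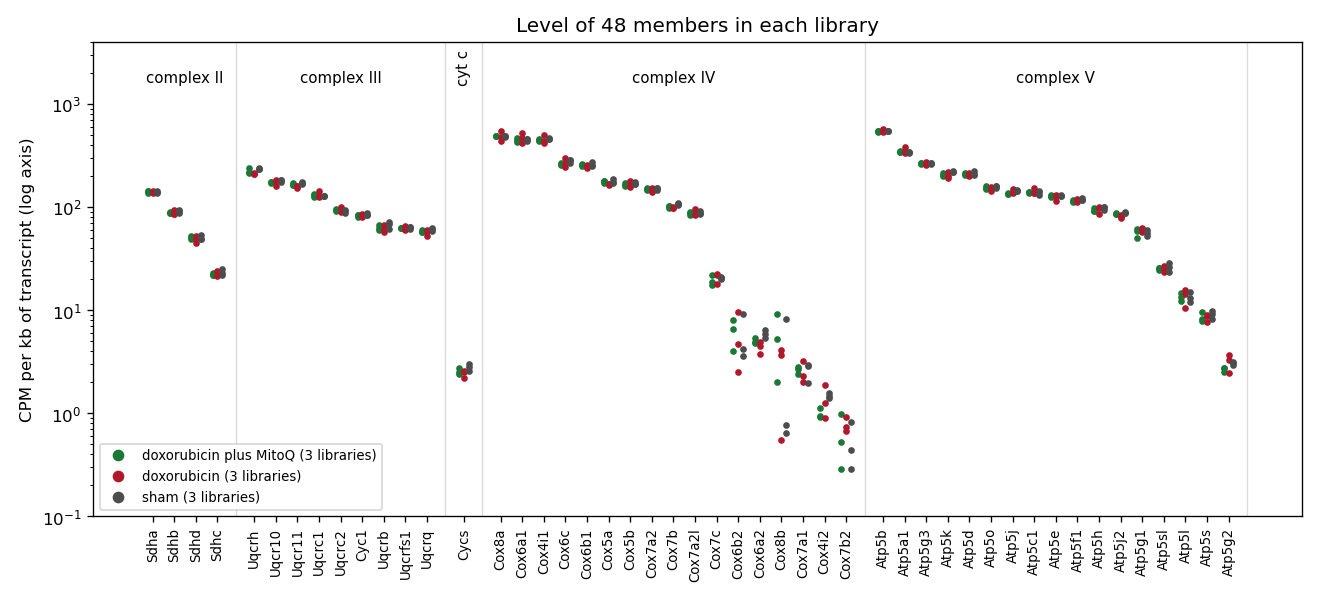
Level of the 48 tested members in each library, as CPM per kb of transcript on a log axis, grouped by complex and ordered by level. Each point is 1 library, in the order doxorubicin plus MitoQ, doxorubicin and sham within a gene. Levels run from 553 CPM per kb (Atp5b) to 0.633 CPM per kb (Cox7b2), and the libraries of abundant genes lie almost on top of each other, while Cox8b and Cox6b2 scatter widely.

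Most members were measured at nearly the same level in every library. A mean of at least 5 CPM was reached by 41 members, and their coefficient of variation over the 9 libraries had a median of 4.34% and ran from 1.58% (Atp5b) to 12.3% (Atp5l). It was under 5% in 25 of the 41 and under 10% in 40. The other 7 tested members, all isoforms of low level, varied by 13.3% (Atp5g2) to 84.8% (Cox8b). Atp5b had 1062, 1045 and 1067 CPM in doxorubicin plus MitoQ libraries, 1058, 1042 and 1098 CPM in doxorubicin libraries, and 1047, 1059 and 1057 CPM in sham libraries. Its groups overlapped fully. Sdha had 401, 416 and 422 CPM with MitoQ, 408, 402 and 422 CPM with doxorubicin alone, and 410.0, 421 and 405 CPM in sham libraries, again with full overlap.

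Doxorubicin against sham is the first comparison. The median log2 fold change of the 48 tested members was -0.04, and none passed the test. By library, their median log2 level relative to each gene's sham mean overlapped between the groups. It was -0.02, -0.12 and 0.04 in doxorubicin libraries and -0.02, 0.01 and 0.004 in sham libraries. Fold changes were below 0 in 36 of the 48 tested members (75%), against 48.9% of all 15296 tested genes. The count below 0 was 4 of 4 in complex II, 7 of 9 in complex III, 13 of 17 in complex IV and 11 of 17 in complex V, and Cycs was also below 0. With edgeR's quasi-likelihood test and Benjamini-Hochberg adjustment, 0 of the 48 members were called at an adjusted p under 0.05, and 0% of all tested genes were. DESeq2 and limma-voom also called 0 members. At an unadjusted p under 0.05 there were 6 members, all lower (12.5%), against 8.83% of all tested genes in either direction, 4.49% lower and 4.33% higher. This count was 3 when only the 2 groups entered the fit. The 3 doxorubicin libraries lay below all 3 sham libraries in 8 members (16.7%), against 6.79% of all tested genes (13% in either direction), and above them in 0, against 6.2%. The ribosomal RNA precursor Rn45s also had doxorubicin and sham libraries apart, at 11499.6, 2042 and 8289 CPM in MitoQ libraries, 715, 656 and 887 CPM in doxorubicin libraries, and 1822, 2167 and 1593 CPM in sham libraries. All 3 doxorubicin libraries lay below the other 6. Its part in the members' levels was not tested.

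The 6 were Uqcrh, Uqcr11, Cox7b, Cox5a, Atp5j2 and Cox6a2, and their smallest adjusted p, that of Uqcrh, was 0.485. Uqcrh had 119, 132 and 121 CPM in doxorubicin plus MitoQ libraries, 117, 116 and 115 CPM in doxorubicin libraries, and 129, 131 and 130.0 CPM in sham libraries. All 3 doxorubicin libraries lay below the other 6, and the MitoQ libraries overlapped the sham libraries. Its log2 fold change between doxorubicin and sham was -0.17 ± 0.05 (SE), with an unadjusted p of 0.00784 in edgeR's quasi-likelihood test. Under the 16 other settings it kept this direction, between -0.18 and -0.16, and its lowest adjusted p among them was 0.267 (DESeq2). Uqcrh also had the smallest p of all members in the test for any difference among the 3 groups (unadjusted 0.0243), in which edgeR called 0 members and 5.11% of all tested genes had an unadjusted p under 0.05.

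Uqcr11, another small subunit of complex III, was picked after its values were seen, as were Cox7b and Cox5a. Uqcr11 had 73.6, 73.6 and 76.1 CPM with MitoQ, 71.1, 68.6 and 72.1 CPM with doxorubicin alone, and 79.2, 76.6 and 75.9 CPM in sham libraries. The doxorubicin libraries were again below the other 6 (log2 fold change against sham -0.13 ± 0.05 SE). Cox7b, a small subunit of complex IV, had 102, 97.9 and 98.3 CPM in doxorubicin libraries and 105, 110.2 and 109 CPM in sham libraries (log2 fold change -0.12 ± 0.05 SE). Cox5a, which lies on the matrix side of complex IV, had 106, 108 and 108 CPM in doxorubicin libraries and 112, 114 and 123 CPM in sham libraries (log2 fold change -0.12 ± 0.05 SE). In both genes doxorubicin and sham libraries did not overlap.

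Atp5j2, the f subunit in the membrane part of ATP synthase, had 82.9, 83.5 and 82.6 CPM with MitoQ, 80.9, 74.8 and 77.7 CPM with doxorubicin alone, and 84.3, 84.4 and 85.5 CPM in sham libraries. The 3 groups did not overlap each other, with doxorubicin lowest and sham highest. Its log2 fold change was -0.12 ± 0.05 (SE) for doxorubicin against sham. Cox6a2, the muscle form of complex IV subunit 6a that in mouse brain is known from parvalbumin interneurons, had 3.33, 3.65 and 3.27 CPM with MitoQ, 3.34, 2.58 and 3.06 CPM with doxorubicin alone, and 3.68, 3.995 and 4.4 CPM in sham libraries. Both doxorubicin-injected groups lay below all sham libraries, with a narrow gap between MitoQ 2 and sham 1 (3.65 and 3.68 CPM). The log2 fold change of doxorubicin against sham was -0.43 ± 0.15 (SE), the most negative of the 6. That of MitoQ against sham was -0.24 ± 0.14 (SE), with an unadjusted p of 0.133 in edgeR. Parvalbumin itself, Pvalb, averaged 28.1 CPM in doxorubicin libraries and 31.0 CPM in sham libraries. For doxorubicin against sham, 5 of the 6 parvalbumin interneuron markers were below 0, beside 48.9% of all tested genes, with a median log2 fold change of -0.09. The summed level of those 6 markers was 601, 671 and 572 CPM in doxorubicin libraries and 623, 613 and 655 CPM in sham libraries, so it overlapped. Doxorubicin 2 had the highest of these sums and the lowest Cox6a2 level. The part of these cells in the Cox6a2 difference was not tested. In bulk tissue, fewer cells of a type and less RNA per cell cannot be told apart.

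**Figure D2:**
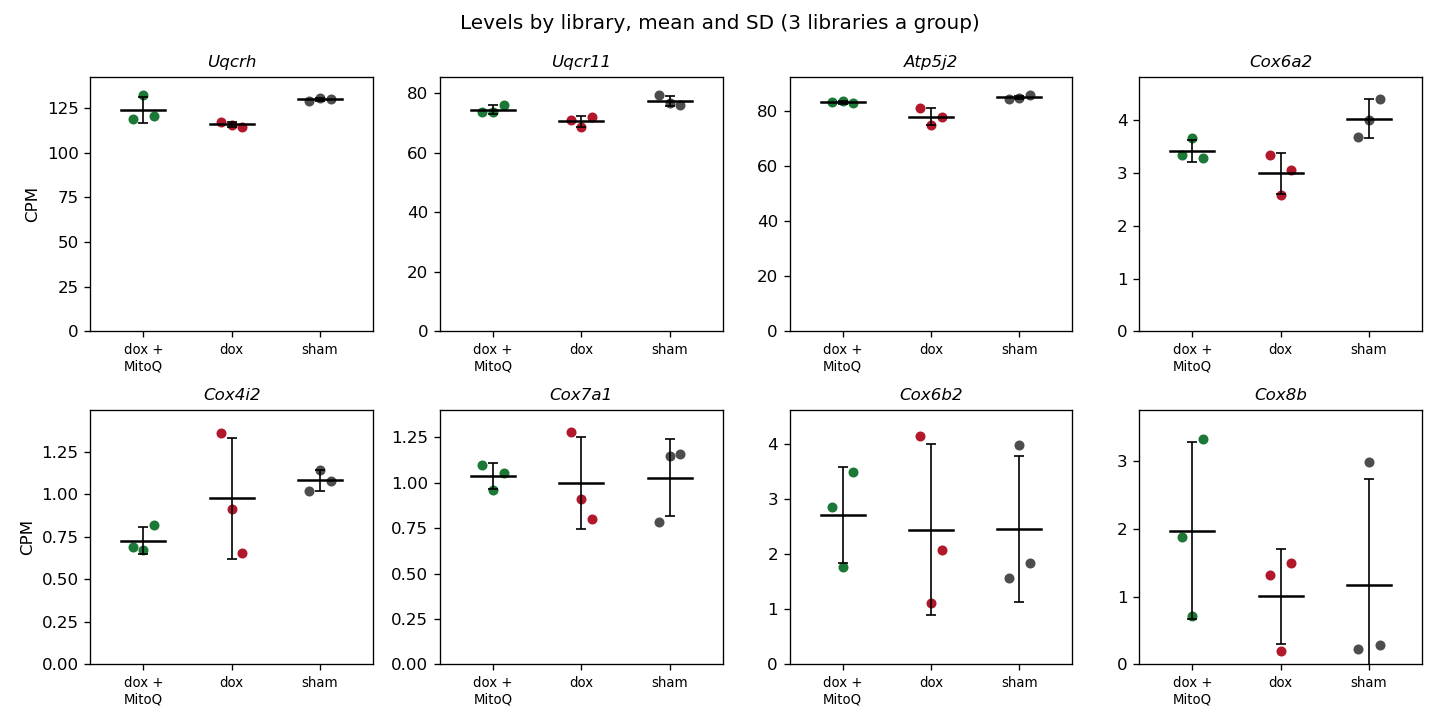
Levels of 8 members in CPM on axes that start at 0, with each library as a point and bars for the mean and SD of 3 libraries. Doxorubicin libraries lie below all sham libraries for Uqcrh, Uqcr11, Atp5j2 and Cox6a2, whereas Cox4i2, Cox7a1, Cox6b2 and Cox8b are low and overlap between doxorubicin and sham; the SD bar of Cox8b in sham is cut off at 0.

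The remaining pair whose doxorubicin libraries lay below all sham libraries was Cycs and Atp5k. Cycs had 7.89, 6.94 and 8.05 CPM in doxorubicin libraries and 8.1, 8.91 and 9.48 CPM in sham libraries, a log2 fold change of -0.21 ± 0.11 (SE). Atp5k, the e subunit of ATP synthase, had 81.3, 70.9 and 75.6 CPM in doxorubicin libraries and 81.8, 83.1 and 82.8 CPM in sham libraries, a log2 fold change of -0.12 ± 0.06 (SE). Neither reached an unadjusted p under 0.05. Both were picked after their values were seen.

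On the other side, 12 members had a log2 fold change above 0, and in none were the doxorubicin libraries all above the sham libraries. The 2 with the smallest p were Atp5g1 and Cox7b2. Atp5g1, one of 3 genes for the c subunit, had 36.9, 30.1 and 35.2 CPM with MitoQ, 37.1, 34.1 and 37.9 CPM with doxorubicin alone, and 35.8, 33.6 and 31.2 CPM in sham libraries (log2 fold change of doxorubicin against sham 0.12 ± 0.09 SE). Cox7b2, a testis form of Cox7b, rested on 4 to 17 counts a library. It had 0.534, 0.288 and 0.158 CPM with MitoQ, 0.505, 0.396 and 0.364 CPM with doxorubicin alone, and 0.157, 0.447 and 0.24 CPM in sham libraries. The groups of both genes overlapped. The catalytic subunits were on this side too, Atp5a1 at 0.06 ± 0.06 and Atp5b at 0.02 ± 0.05, with the core proteins of complex III, Uqcrc1 at 0.04 ± 0.06 and Uqcrc2 at 0.04 ± 0.05 (log2 fold change ± SE).

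The 95% intervals of a difference were narrow for the abundant members. Like the p-values, they reflect how much these samples varied, which may be technical variation only, here and in the other comparisons. They are not adjusted for the number of genes. The median SE of a log2 fold change was 0.06 over the 41 members of at least 5 CPM. For 38 of those 41, the 95% interval of the doxorubicin against sham difference lay within 1.25-fold in either direction (0.32 on the log2 scale). The exceptions were Cycs, Atp5l and Atp5s. For the 7 members of low level, 0 of the intervals lay within 1.25-fold.

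**Figure D3:**
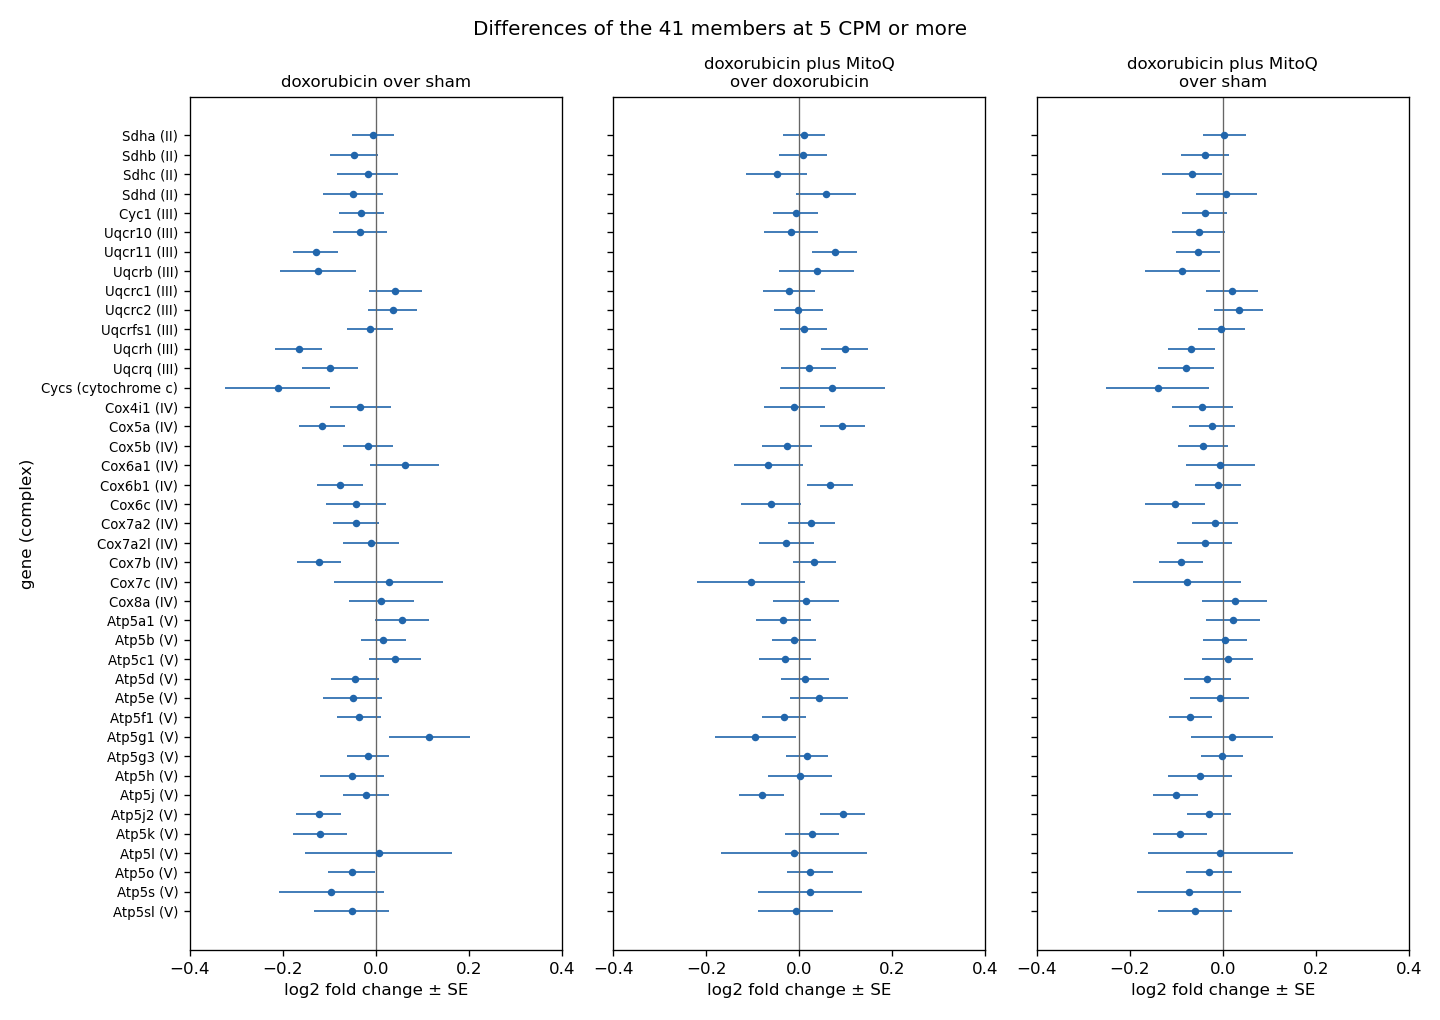
Log2 fold change and SE of the 41 members of at least 5 CPM in the 3 comparisons, one gene per row, with complexes from II to V down the page. Points for doxorubicin over sham run from -0.21 (Cycs) to 0.12 (Atp5g1) with 31 of 41 below 0, points for doxorubicin plus MitoQ over doxorubicin lie on both sides of 0, and 32 of 41 are below 0 for doxorubicin plus MitoQ over sham.

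The 3 doxorubicin libraries differed among themselves more than the groups did. Doxorubicin 2 had the lowest level of the 9 libraries in 29 of the 48 tested members and the highest in 0, and it was below the gene's own median in 44. Doxorubicin 3 had the highest level in 19 members. Between these 2 libraries of 1 group, 38 of the 41 abundant members (92.7%) were higher in doxorubicin 3, with a median ratio of 1.10, whereas over 11242 tested genes at 5 CPM or more in both the share was 49.5% and the median ratio 0.998. Relative to the sham mean of each gene, the median log2 level of the 41 members was -0.04, -0.04 and -0.03 in doxorubicin plus MitoQ libraries, -0.03, -0.11 and 0.04 in doxorubicin libraries, and -0.01, 0.01 and 0.00 in sham libraries. Doxorubicin 2 stood lowest and doxorubicin 3 highest in complexes II, III, IV and V each, at -0.07 and 0.04 in complex II, -0.15 and 0.02 in complex III, -0.14 and 0.07 in complex IV, and -0.08 and 0.03 in complex V.

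The comparison of doxorubicin with sham depends on both doxorubicin 2 and doxorubicin 3. Without doxorubicin 2, the median log2 fold change of the members was -0.0002 and 24 of 48 were below 0. Without doxorubicin 3, the median was -0.07 and 42 were below 0. Both libraries were singled out for their levels, so the direction of each shift was fixed in advance. The share of all tested genes below 0 in these fits is not given here. Uqcrh was lower in each of these fits, by -0.17 without doxorubicin 2 and -0.16 without doxorubicin 3 on the log2 scale. These recounts were chosen after the data were seen.

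**Figure D4:**
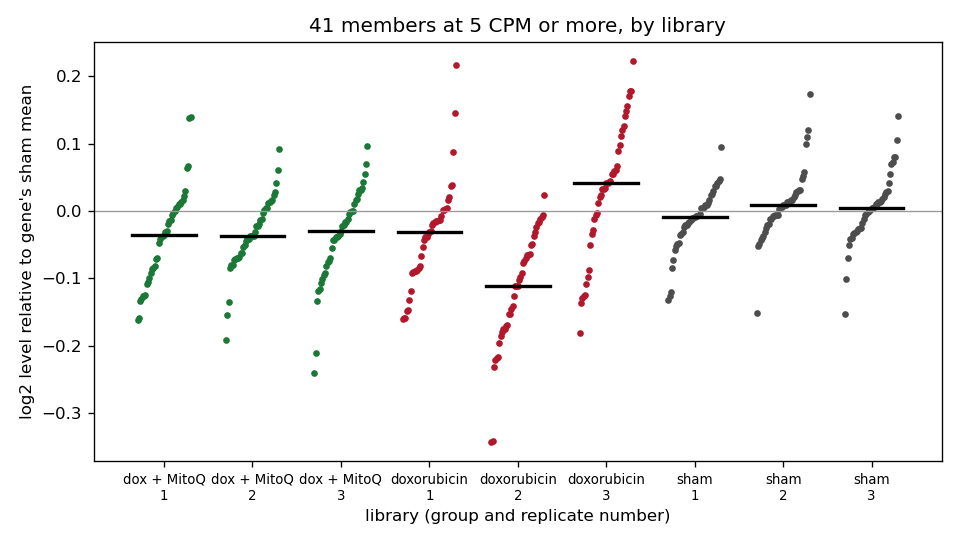
Log2 level of each of the 41 members of at least 5 CPM relative to its sham mean, by library, with black bars at the median of the 41. Doxorubicin 2 has its median at -0.11 with 40 of 41 members below 0, doxorubicin 3 has its median at 0.04 with 27 above 0, and the 3 doxorubicin plus MitoQ libraries lie at -0.04, -0.04 and -0.03.

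Short transcripts stood lower than long ones in doxorubicin 2. Of the 41 abundant members, 23 have a transcript under 1000 bases, and their median log2 level in doxorubicin 2 was -0.15, while that of the 18 longer ones was -0.05. Among other tested genes of at least 5 CPM, the 667 under 1000 bases had a median of -0.10 in that library and the 10312 longer ones had 0.02. In doxorubicin 3, the medians were 0.03 in short and 0.04 in long members, and 0.01 in short and 0.003 in long other genes. Short other genes were also lower in MitoQ libraries, at -0.06, -0.03 and -0.04 against 0.01 each in long ones. In doxorubicin 1 they were at -0.04 against 0.01. For doxorubicin against sham, the median log2 fold change was -0.04 in the short and -0.02 in the long members, and -0.05 in the short and 0.01 in the long other genes, with 78.3%, 72.2%, 68.4% and 46.1% of them below 0. A list of 8 nuclear-retained RNAs was highest in doxorubicin 2. Its median log2 level relative to the sham mean was 0.14, -0.02 and 0.07 in doxorubicin plus MitoQ libraries. It was 0.18, 0.35 and 0.16 in doxorubicin libraries, and 0.00, -0.33 and 0.29 in sham libraries. The part of length and of nuclear RNA in the members' levels was not tested.

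Doxorubicin 2 was also lowest and doxorubicin 3 highest in the genes whose symbol starts with Nduf and in the cytosolic ribosomal proteins. The Nduf genes hold subunits and assembly factors of complex I, the entry point for electrons from NADH, and also Ndufa4 and Ndufa4l2. Their median log2 level relative to the sham mean was -0.10 in doxorubicin 2 and 0.03 in doxorubicin 3, and that of the cytosolic ribosomal proteins was -0.16 and 0.03, with MitoQ 3 next lowest at -0.11. In the mitochondrial ribosomal proteins, MitoQ 1 and doxorubicin 2 were lowest at -0.06 each, and doxorubicin 3 was highest at 0.04. For doxorubicin against sham, 35 of 44 Nduf genes were below 0 with a median log2 fold change of -0.04, 58 of 79 cytosolic ribosomal protein genes with -0.06, and 48 of 77 mitochondrial ribosomal protein genes with -0.03, beside 48.9% of all tested genes. In each of these lists 0 genes were called by edgeR, and 3, 4 and 4 were at an unadjusted p under 0.05, beside 8.83% of all tested genes. The difference between these lists and complexes II to V was not tested.

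Doxorubicin plus MitoQ against doxorubicin is the comparison that bears on MitoQ. The members did not stand to one side, with 26 of 48 higher (54.2%) and 22 lower (45.8%) with MitoQ, against 49.9% and 50.1% of all tested genes, and a median log2 fold change of 0.01. With edgeR 0 members were called, with a smallest adjusted p of 0.968, and DESeq2 and limma-voom also called 0. At an unadjusted p under 0.05 there were 0 members, against 3.3% of all tested genes, of which 1.88% were higher and 1.43% lower. The groups did not overlap in 9.71% of all tested genes. The 3 MitoQ libraries lay above all doxorubicin libraries in 4 members (8.33%), against 4.73% of all tested genes, and below them in 1 (2.08%), against 4.98%. Those 4 were Atp5j2, Uqcrh, Cox5a and Uqcr11, whose doxorubicin libraries are the same as in the comparison with sham, so the 2 comparisons are not independent. Atp5j2 and Uqcrh had log2 fold changes of 0.09 ± 0.05 and 0.10 ± 0.05 (SE) for MitoQ against doxorubicin, with unadjusted p of 0.0773 and 0.08 in edgeR. Which side held more members turned with the setting. Lower with MitoQ were 35 of 48 without doxorubicin 2 (median log2 fold change -0.03), 10 of 48 without doxorubicin 3 (0.04) and 29 of 48 with choroid plexus RNA as a covariate (-0.01).

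The gene below was Atp5j, coupling factor 6 in the peripheral stalk of ATP synthase. Atp5j had 100.02, 102 and 99.4 CPM with MitoQ, 105, 102 and 112 CPM with doxorubicin alone, and 107, 109 and 107 CPM in sham libraries. The MitoQ libraries were the lowest 3 of the 9, by a narrow gap to doxorubicin 2. The log2 fold change was -0.08 ± 0.05 (SE) against doxorubicin and -0.10 ± 0.05 (SE) against sham, with unadjusted p of 0.128 and 0.0627 in edgeR. For 39 of the 41 abundant members, the 95% interval of the MitoQ against doxorubicin difference lay within 1.25-fold in either direction, the exceptions being Cox7c and Atp5l.

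Doxorubicin plus MitoQ against sham shares its sham libraries with the first comparison. In it 35 of 48 members were lower (72.9%) and 13 higher (27.1%), against 47.8% and 52.2% of all tested genes, with a median log2 fold change of -0.04. With choroid plexus RNA as a covariate, 44 of 48 were lower and the median was -0.06. With edgeR 0 members were called, with a smallest adjusted p of 0.9998, and DESeq2 and limma-voom also called 0. At an unadjusted p under 0.05 there were 0 members, against 2.95% of all tested genes, of which 1.77% were lower and 1.18% higher. This count of members was 3, all lower, when only the 2 groups entered the fit. The groups did not overlap in 9.11% of all tested genes. The 3 MitoQ libraries lay below all sham libraries in 10 members (20.8%), against 5% of all tested genes, and above them in 0, against 4.11%. The 10 were Atp5j, Atp5j2, Atp5k, Atp5f1 and Atp5g2 of complex V, Cox4i2, Cox6a2, Cox6c and Cox7b of complex IV, and Uqcr10 of complex III. Their log2 fold changes were small except in the low isoforms, for example -0.09 ± 0.05 in Cox7b, -0.10 ± 0.06 in Cox6c and -0.07 ± 0.05 in Atp5f1, the b subunit of the peripheral stalk (± SE). Uqcrc2, a core protein of complex III, was the abundant member with the smallest p among those higher. It had 174, 182 and 179.6 CPM with MitoQ, 173, 174 and 190.3 CPM with doxorubicin alone, and 169, 181 and 174 CPM in sham libraries, with overlap between all groups. For 38 of the 41 abundant members, the 95% interval of the MitoQ against sham difference lay within 1.25-fold in either direction, the exceptions being Cycs, Cox7c and Atp5l.

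The isoforms of complex IV are where the members varied most. Shares were computed from CPM per kb. Cox8a, the broadly used form of subunit 8, had 274, 271 and 274 CPM with MitoQ, 265, 242 and 303 CPM with doxorubicin alone, and 269, 264 and 272 CPM in sham libraries. Cox8b, the heart and muscle form, had 1.88, 0.72 and 3.32 CPM with MitoQ, 1.32, 0.198 and 1.49 CPM with doxorubicin alone, and 0.235, 2.99 and 0.28 CPM in sham libraries. Its libraries overlapped between all groups and differed within each group, from 5 to 126 counts. The mean share of Cox8b among both was 1.09% ± 0.708 with MitoQ, 0.542% ± 0.362 with doxorubicin alone and 0.665% ± 0.900 in sham libraries (SD, n = 3 each).

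Cox8b levels moved with choroid plexus RNA across libraries. The 3 libraries poor in choroid plexus markers, doxorubicin 2, sham 1 and sham 3, had the 3 lowest Cox8b levels, and the 2 with the most choroid plexus RNA, MitoQ 3 and sham 2, had the 2 highest. Its log2 fold change with MitoQ against sham was 0.66 ± 0.86 (SE), and -0.20 when choroid plexus RNA was a covariate. Cox6b2, a testis form of subunit 6b picked after its values were seen, had 2.86, 1.78 and 3.51 CPM with MitoQ, 4.16, 1.11 and 2.08 CPM with doxorubicin alone, and 1.57, 3.995 and 1.84 CPM in sham libraries. Its 5 highest levels were in the 5 libraries with the most choroid plexus RNA. The part of choroid plexus cells in these levels was not tested. Of 7 heart and skeletal muscle markers 4 passed the filter, and in order of level these were Actn2, Myh7, Acta1 and Tnnt2, whose summed level was 39.4, 40.5 and 43.2 CPM with MitoQ, 46.8, 35.998 and 38.9 CPM with doxorubicin alone, and 38.9, 42.9 and 44.1 CPM in sham libraries. Actn2 averaged 20.5 CPM with MitoQ, 21.6 CPM with doxorubicin alone and 19.0 CPM in sham libraries. The 3 that did not pass were Ckm, which averaged 0.045, 0.012 and 0.032 CPM in those groups, Mb, at 0.155, 0.309 and 0.245 CPM, and Myh6, at 0.173, 0.125 and 0.152 CPM. The part of muscle RNA in the Cox8b level was not tested.

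**Figure D5:**
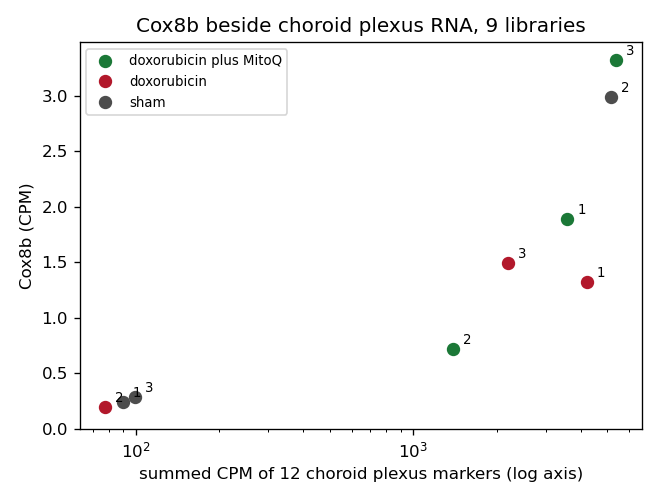
Cox8b level in CPM against the summed CPM of 12 choroid plexus markers on a log axis, with 1 point per library and its replicate number beside it. The 3 libraries with under 100 CPM of choroid plexus markers (1 doxorubicin, 2 sham) have 0.198 to 0.28 CPM of Cox8b, and the other 6 have 0.72 to 3.32 CPM.

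Cox4i1, the broad form of subunit 4, had 327, 347 and 333 CPM with MitoQ, 327, 311 and 376 CPM with doxorubicin alone, and 347, 349 and 342 CPM in sham libraries. Cox4i2, a lung form that in mouse brain is known from pericytes, had 0.691, 0.672 and 0.817 CPM with MitoQ, 1.36, 0.912 and 0.656 CPM with doxorubicin alone, and 1.02, 1.15 and 1.08 CPM in sham libraries. The MitoQ libraries lay below all sham libraries, while doxorubicin libraries spread over both. The log2 fold change was -0.57 ± 0.28 (SE) for MitoQ against sham, -0.42 ± 0.29 for MitoQ against doxorubicin and -0.15 ± 0.29 for doxorubicin against sham. The first had the largest effect of the members lower than sham, with an unadjusted p of 0.0701 in edgeR, and it rested on 22, 28 and 31 counts in MitoQ libraries and 26, 41 and 27 counts in sham libraries. All 10 markers of pericytes and vascular smooth muscle were below 0 for MitoQ against sham, beside 47.8% of all tested genes. Their median log2 fold change was -0.33. For doxorubicin against sham, 8 of the 10 markers were below 0, beside 48.9% of all tested genes, with a median of -0.26. Their summed level was 155, 141 and 151 CPM with MitoQ, 173, 159.7 and 125 CPM with doxorubicin alone, and 187, 162 and 185 CPM in sham libraries. Tagln, a smooth muscle actin-binding protein, averaged 2.47 CPM with MitoQ, 2.64 CPM with doxorubicin alone and 4.28 CPM in sham libraries. The part of these cells in the Cox4i2 difference was not tested.

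The subunits 6a and 7a have isoform pairs as well. Cox6a1, the broad form of subunit 6a, had 272, 248 and 257 CPM with MitoQ, 267, 243 and 303 CPM with doxorubicin alone, and 266, 250.4 and 262 CPM in sham libraries. The share of Cox6a2 among both was 1.10% ± 0.108 with MitoQ, 0.921% ± 0.105 with doxorubicin alone and 1.29% ± 0.125 in sham libraries (SD, n = 3 each), and its doxorubicin and sham libraries did not overlap. Cox7a1, the muscle form of subunit 7a, had 1.1, 0.96 and 1.05 CPM with MitoQ, 1.28, 0.912 and 0.802 CPM with doxorubicin alone, and 0.783, 1.15 and 1.16 CPM in sham libraries, all overlapping. Its broad counterpart Cox7a2 had 98.9, 101 and 97.2 CPM with MitoQ, 94.0, 95.4 and 102 CPM with doxorubicin alone, and 101, 102 and 98.1 CPM in sham libraries. The share of Cox7a1 among both was 1.73%, 1.70% and 1.69% in those groups. Cox7a2l, a relative of Cox7a2, had 94.1, 96.4 and 90.1 CPM with MitoQ, 90.6, 92.8 and 103 CPM with doxorubicin alone, and 99.3, 95.7 and 93.4 CPM in sham libraries, with overlap throughout.

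Atp5g1, Atp5g2 and Atp5g3 encode the same mature c subunit of the ATP synthase rotor. Atp5g3 had 191, 188 and 193 CPM with MitoQ, 186, 183 and 197 CPM with doxorubicin alone, and 188, 191 and 194 CPM in sham libraries. Atp5g2 had 2.01, 1.85 and 2.004 CPM with MitoQ, 2.72, 1.82 and 2.4 CPM with doxorubicin alone, and 2.15, 2.32 and 2.28 CPM in sham libraries, the MitoQ libraries lying below all sham libraries. Per kb, Atp5g3 gave 81.7% ± 1.39 of the 3 with MitoQ, 80.5% ± 0.616 with doxorubicin alone and 81.8% ± 1.17 in sham libraries (SD, n = 3 each). Atp5g1 gave 17.4%, 18.6% and 17.2%, and Atp5g2 gave 0.817%, 0.963% and 0.942%. These shares overlapped between doxorubicin and sham, and those of Atp5g1 and Atp5g2 rest on transcripts with near-identical copies. Atp5g1 has matched transcripts of 596 and 4715 bases, and the length used was 596. A longer length would lower its share and raise the others, so the split between the 3 genes depends on this choice. Atp5s and Atp5sl carry the Atp5 prefix in the deposited table but are named Dmac2l and Dmac2 in RefSeq, and they are not core subunits of ATP synthase. Atp5s averaged 12.9 ± 1.38 CPM with MitoQ, 12.7 ± 1.03 CPM with doxorubicin alone and 13.5 ± 1.19 CPM in sham libraries, and Atp5sl averaged 37.2 ± 0.662, 37.4 ± 2.44 and 38.8 ± 3.9 CPM in the same order (SD, n = 3 each).

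Genes that build or regulate the complexes were taken from lists. Of 38 assembly factors, 37 were tested, and 16 were higher and 21 lower in doxorubicin than in sham libraries, with a median log2 fold change of -0.03 and 0 called by edgeR, beside 51.1% of all tested genes higher and 48.9% lower. The 2 at an unadjusted p under 0.05, beside 8.83% of all tested genes, were Cox18, which helps to insert Cox2 into the inner membrane and averaged 10.99 CPM in doxorubicin libraries against 9.27 CPM in sham libraries (log2 fold change 0.25), and Sdhaf2, which attaches flavin to Sdha, at 29.2 and 33.2 CPM (log2 fold change -0.19). For MitoQ against doxorubicin 17 were higher and 20 lower, beside 49.9% and 50.1% of all tested genes, and 0 reached an unadjusted p under 0.05, beside 3.3%. For MitoQ against sham 12 were higher and 25 lower, beside 52.2% and 47.8% of all tested genes, and 2 reached an unadjusted p under 0.05, beside 2.95%, both lower: Uqcc2, at 40.7 CPM with MitoQ and 45.5 CPM in sham, and Cox17, a copper chaperone for complex IV, at 30.1 and 35.3 CPM. Of the 17 transcriptional regulators, 8 were higher and 9 lower for doxorubicin against sham, 9 higher and 8 lower for MitoQ against doxorubicin, and 11 higher and 6 lower for MitoQ against sham, and 0 reached an unadjusted p under 0.05 in any of the 3. Their log2 fold changes for MitoQ against sham ran from -0.11 to 0.31. The MitoQ libraries lay above all sham libraries in 2 of the 17, beside 4.11% of all tested genes, and below them in 0, beside 5%. Ppargc1a, the coactivator PGC-1 alpha, averaged 55.5 CPM with MitoQ, 54.7 CPM with doxorubicin alone and 55.4 CPM in sham libraries, and Nrf1 averaged 17.6, 18.5 and 17.5 CPM. Ndufa4, which is part of complex IV in spite of its name, averaged 164 CPM with MitoQ, 168 CPM with doxorubicin alone and 169 CPM in sham libraries, and the ATP synthase inhibitor Atpif1 averaged 104, 105 and 108 CPM. Hccs, which attaches haem to cytochrome c, averaged 19.6, 18.9 and 20.1 CPM.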

How the data were processed

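The deposited table holds the authors' raw read counts per gene symbol, made from polyadenylated RNA of 9 libraries (3 a group). The submitters' processing notes name STAR, DESeq2 and mm10 with no versions. The counting program, strand setting and annotation are not stated there or in the labels. Of 24421 entries, 27 carry a date in place of a symbol (0.309% to 0.322% of counts) and stayed out of library sizes and tests. Genes were filtered with filterByExpr (minimum count 10), scaled by TMM and fitted in 1 quasi-likelihood model of all 9 libraries (edgeR 4.0.16, R 4.3.3), with Benjamini-Hochberg adjustment over 15296 genes and calls at an adjusted p under 0.05. Genes varied between replicates by a common biological coefficient of 11.4%. The SE is the absolute log2 fold change over the square root of F. With 3 libraries against 3, the smallest exact permutation p is 0.1. The procedure was tested on simulated data. Members, lists and tests were chosen with earlier results of these data known.

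Values per library were given for the 2 members with the smallest p in each direction and comparison, the smallest p for any difference, the highest level per kb of each complex and 5 isoform families, except where the text says that a gene was picked afterwards. Lengths are those of GENCODE M21 transcripts (median of those matched to RefSeq). Where their number was even, the shorter of the 2 middle transcripts was used. Near-identical copies were sought with blastn. Alternatives were median-of-ratios size factors, no filter, a replicate block, a choroid plexus covariate, only the groups compared, limma-voom (limma 3.58.1), DESeq2 1.42.0 and leaving out each library. Figures were drawn with matplotlib 3.10.9.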

Additional observations from a re-analysis of the deposited data

How the results depend on the processing

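No member was called by any of the 16 other settings in any comparison. The members' median log2 fold change was smaller in each comparison than the pooled SD within groups of their median log2 level (0.05). Within single groups, that SD was 0.0028 in doxorubicin plus MitoQ libraries, 0.08 in doxorubicin libraries and 0.01 in sham libraries. The pooled SD thus comes mostly from the doxorubicin libraries, which are on neither side of MitoQ against sham. For that comparison the median log2 levels did not overlap. They were -0.033, -0.038 and -0.033 in MitoQ libraries and -0.015, 0.011 and 0.004 in sham libraries. The median log2 fold change was not stable in the comparisons that hold the libraries with doxorubicin alone. It ran from -0.07 to -0.0002 for doxorubicin against sham and from -0.03 to 0.04 for MitoQ against doxorubicin with 1 library left out. For MitoQ against sham it was -0.04, between -0.05 and -0.03 with 1 library left out, and -0.06 with the choroid plexus covariate. Counts of called genes over the whole table, 0 in each comparison by edgeR, changed. For doxorubicin against sham they were 1 with no filter, 2 with a replicate block, 44 with DESeq2 and 0 to 1 with 1 library left out. For MitoQ against doxorubicin they were 2 with no filter, 5 with DESeq2 and 0 to 3 with 1 library left out. For MitoQ against sham they were 2 with DESeq2 and 0 to 3 with 1 library left out, and for any difference 3 with no filter, 36 with DESeq2 and 0 to 4. All calls with 1 library left out came without MitoQ replicate 2. The cause was not tested. Members lower with MitoQ than with doxorubicin, 22 in all, numbered 10 to 35 with 1 library left out, 35 without doxorubicin 2 and 10 without doxorubicin 3. With the choroid plexus covariate, 39, 29 and 44 of 48 members were lower for doxorubicin against sham, MitoQ against doxorubicin and MitoQ against sham. Deviations of libraries with the same replicate number had correlations of -0.50 to 0.36. Libraries with different numbers were not compared, so these values do not decide whether replicate numbers mark pairs. The replicate block therefore gives no paired result.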
